A study of Mus musculus with 16 samples.

Results

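Pax2, Pax8, Lhx1, Sall1, Sox9, Sox4 and Sox11 are transcription factor genes with roles in building the nephron, the filtering unit of the kidney. They were taken as a list by gene symbol from a table of read counts, and all 7 were found among its 52338 genes and passed the filter on low counts. The table held RNA-seq of 16 kidneys of C57BL6 mice, 4 in each of 4 groups, taken at day 15 after treatment. The groups were FAN under time-restricted feeding, FAN under ad libitum feeding, vehicle under time-restricted feeding and vehicle under ad libitum feeding. All 4 groups, vehicle included, had a high-fat diet. What FAN stands for is not written in the labels, though the word folic is part of each column name. Age, sex, dose and feeding hours are not given in the sources used here. Each library held RNA of a whole kidney sample selected for poly(A) tails, so that it mixes all cell types of the organ. The labels list separate samples without stating that each is an animal, so p-values measure the spread between these samples.

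During kidney development, Pax2 and Pax8 encode paired-domain factors that are needed for the renal lineage to form. Lhx1 encodes a LIM-homeodomain factor of the renal vesicle and of nephron patterning, and Sall1 a zinc-finger factor that keeps nephron progenitors renewing. The SOX proteins bind DNA through a shared HMG box: Sox9 acts at the ureteric bud tips and in nephron patterning and is known to be switched on again in regenerating tubule cells of the injured adult kidney, while Sox4 and Sox11, both of the SoxC group, act together in nephron formation.

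The SOX genes carried the main result, so the first bases of their HMG boxes are shown, since reads of near-identical genes could be mixed. Each line gives 90 coding bases, read from the GENCODE M21 transcripts of GRCm38, with the bases identical in all 3 genes in capitals. The stretch covers coding bases 319 to 408 of Sox9, 181 to 270 of Sox4 and 151 to 240 of Sox11.
Sox9: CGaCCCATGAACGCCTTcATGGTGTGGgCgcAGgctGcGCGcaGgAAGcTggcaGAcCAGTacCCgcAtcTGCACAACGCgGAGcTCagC
Sox4: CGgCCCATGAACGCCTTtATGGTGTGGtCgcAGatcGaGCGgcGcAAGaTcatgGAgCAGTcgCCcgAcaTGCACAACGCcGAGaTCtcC
Sox11: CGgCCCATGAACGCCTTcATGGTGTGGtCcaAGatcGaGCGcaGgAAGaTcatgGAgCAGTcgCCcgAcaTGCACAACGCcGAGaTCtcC
Of the 90 bases, 62 (68.9%) were identical in all 3. Sox4 and Sox11 shared 84, Sox9 and Sox11 66, and Sox9 and Sox4 64. The longest identical run in the coding sequences was 48 bases, between Sox4 and Sox11, and none of the 50-base windows of any of the 7 genes' transcripts occurred in another gene's transcripts.

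The promoter source used here held no entry for Sox9. Promoters are shown for Sox4 and Sox11, which moved together, and for Pax8, which moved the other way. Each is the 250 bases before the transcription start in RefSeq on GRCm38.p6, 5′ to 3′ on the gene's strand. Capitals mark matches, on either strand, to the CCAAT box (CCAAT), the GC box (GGGCGG) or the TEAD element (GGAATG).
Sox4, chr13:28953700-28953949, minus strand: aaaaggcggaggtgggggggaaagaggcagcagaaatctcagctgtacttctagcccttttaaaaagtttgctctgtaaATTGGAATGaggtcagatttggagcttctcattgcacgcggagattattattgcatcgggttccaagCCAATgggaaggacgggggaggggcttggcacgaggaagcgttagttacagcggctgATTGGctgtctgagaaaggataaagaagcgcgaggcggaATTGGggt
Sox11, chr12:27342719-27342968, minus strand: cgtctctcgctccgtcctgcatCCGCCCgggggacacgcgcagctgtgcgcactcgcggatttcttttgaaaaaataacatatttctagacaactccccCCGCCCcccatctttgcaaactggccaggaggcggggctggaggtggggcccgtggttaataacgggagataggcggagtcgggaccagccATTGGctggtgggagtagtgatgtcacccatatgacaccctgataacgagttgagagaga
Pax8, chr2:24475600-24475849, minus strand: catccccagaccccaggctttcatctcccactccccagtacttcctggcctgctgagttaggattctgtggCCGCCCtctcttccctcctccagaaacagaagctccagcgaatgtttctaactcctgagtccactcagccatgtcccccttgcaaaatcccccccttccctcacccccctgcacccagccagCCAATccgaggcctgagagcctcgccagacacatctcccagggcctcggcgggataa
The Sox4 promoter held 4 CCAAT matches and 1 GGAATG match, which overlaps a CCAAT match. Of 32851 mouse promoters of this length, 33.8% held at least 1 CCAAT match and 0.84% held 4 or more, and 12.6% held GGAATG. The cut of 4 was chosen from the count seen in Sox4. The Sox11 promoter held 1 CCAAT match and 2 GGGCGG matches, and the Pax8 promoter 1 of each. GGGCGG was found in 32.7% of promoters. The searches for TATAAA, for the AP-1 letters TGANTCA and for the SOX letters AACAAT found no match in these 3 windows, against 12.4%, 6.75% and 9.42% of promoters. These are descriptions of letters, not of bound sites.

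Total counts ranged from 12450812 to 33976660 per library. Levels are given as CPM, read counts scaled to a library size common to all libraries and by TMM, which corrects for differences in RNA composition, and log2 changes, with standard errors (SE), come from edgeR's quasi-likelihood test. A change was called at a p under 0.05 after Benjamini-Hochberg adjustment over 17731 tested genes. The TMM factors were 0.8648 to 0.975 in FAN time-restricted libraries, 1.318 to 1.53 in FAN ad libitum libraries and 0.8157 to 0.9225 in vehicle libraries. Mitochondrial transcripts took 21.4 to 26.7% of counts in FAN time-restricted kidneys, 6.94 to 14.8% in FAN ad libitum kidneys and 17.2 to 22.8% in vehicle kidneys. The S numbers in the column names fall into 3 ranges: S97 to S103, S198 to S201 (vehicle kidneys only) and S300 to S305 (FAN kidneys only). FAN libraries are named by the number in their column name.

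The 3 SOX genes were far higher in FAN than in vehicle kidneys under both feeding regimens. Pax8 was lower in FAN kidneys by less than 1 on the log2 scale under both, and no change was called for Pax2, Lhx1 or Sall1. In all, 4 of 7 genes were called under time-restricted feeding, where 43.5% of all genes tested were called, and 4 of 7 under ad libitum feeding, where 60.7% were. Of all genes tested, 24.5% rose and 19% fell under time-restricted feeding, and 32.1% rose and 28.6% fell under ad libitum feeding. The median log2 change of the 7 genes was 0.21 under time-restricted feeding, against 0.05 over all genes tested, and 0.08 under ad libitum feeding, against 0.06.

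**Figure D1:**
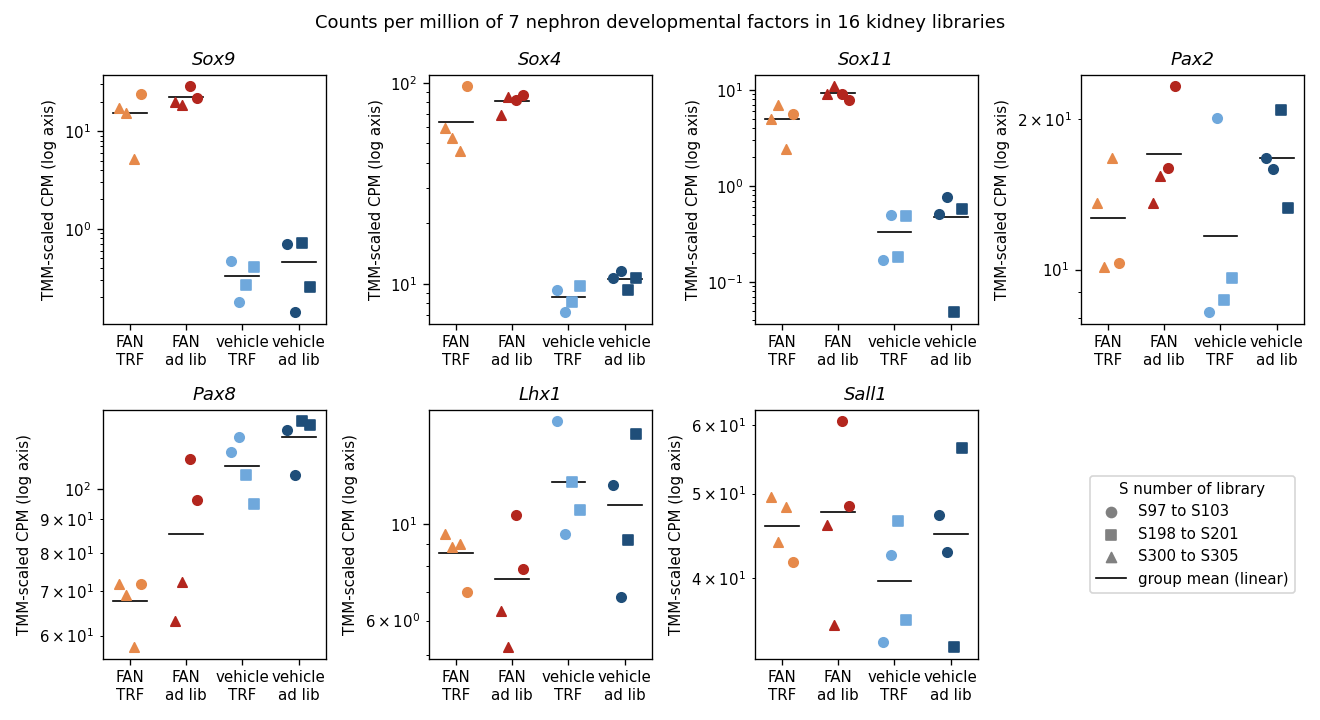
TMM-scaled CPM (log axis) of each of the 7 genes in each of the 16 libraries by group, with the group mean as a line and the range of S numbers as the symbol (ad lib, ad libitum; TRF, time-restricted feeding). The FAN libraries sit above all vehicle libraries for Sox9, Sox4 and Sox11, while Pax2 and Sall1 overlap between groups.

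Sox9 (ENSMUSG00000000567, chr11:112782224-112787760, plus strand, GENCODE M21 on GRCm38) was close to absent in vehicle kidneys. Under time-restricted feeding it stood at 23.7, 17.3, 15.4 and 5.2 CPM in FAN kidneys, against 0.466, 0.177, 0.27 and 0.407 CPM in vehicle kidneys. Under ad libitum feeding the values were 28.8, 21.7, 19.7 and 18.4 CPM in FAN kidneys, against 0.706, 0.14, 0.719 and 0.252 CPM in vehicle kidneys. No FAN library came near a vehicle library, and the lowest FAN value was that of FAN time-restricted 12. Sox9 rose by 5.6 ± 0.49 (log2, SE; adjusted p = 1.64e-07, edgeR) under time-restricted feeding and by 5.57 ± 0.47 (adjusted p = 2.12e-08, edgeR) under ad libitum feeding. The vehicle levels rest on 4 to 21 reads per library, so the size of these folds is less certain than their direction. A count of 3 reads, the upper limit that a count of 0 allows, was worth 0.0883 to 0.241 CPM of the library total.

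Sox4 (ENSMUSG00000076431, chr13:28948919-28953713, minus strand) is a gene of a single exon and was the most abundant SOX gene of the 3 in every group. Under time-restricted feeding its level was 96.2, 59.2, 53.3 and 45.8 CPM in FAN kidneys, against 9.31, 7.2, 8.14 and 9.69 CPM in vehicle kidneys. In the ad libitum groups it was 82.5, 87.3, 69.1 and 85.1 CPM in FAN kidneys, against 10.7, 11.6, 9.3 and 10.7 CPM in vehicle kidneys. The groups did not overlap under either regimen. This held for 40.3% of genes tested under time-restricted feeding (22.4% with FAN higher and 17.9% with FAN lower) and for 54.9% under ad libitum feeding (29% with FAN higher). On the log2 scale Sox4 rose by 2.9 ± 0.19 (adjusted p = 8.2e-09, edgeR) under time-restricted feeding and by 2.94 ± 0.19 (adjusted p = 7.63e-10, edgeR) under ad libitum feeding. The annotation places the noncoding RNA gene Gm26735 on the other strand across part of Sox4, and without a stated strand setting its reads could not be told from those of Sox4.

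Sox11 (ENSMUSG00000063632, chr12:27334264-27342574, minus strand), the SoxC partner of Sox4, had the lowest mean per kilobase of exon of the 7 in every group. In time-restricted mice it was at 5.64, 4.99, 6.88 and 2.42 CPM in FAN kidneys, against 0.169, 0.496, 0.18 and 0.489 CPM in vehicle kidneys. In ad libitum mice it was at 8.94, 7.9, 9.03 and 10.9 CPM in FAN kidneys, against 0.504, 0.771, 0.0479 and 0.568 CPM in vehicle kidneys. Every FAN library again exceeded every vehicle library, where the gene had 1 to 22 reads. Sox11 rose by 3.94 ± 0.46 (log2, SE; adjusted p = 2.86e-06, edgeR) under time-restricted feeding and by 4.24 ± 0.43 (adjusted p = 1.6e-07, edgeR) under ad libitum feeding.

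Within S97 to S103, which holds FAN and vehicle libraries, the SOX changes were of similar size. Under time-restricted feeding, with 1 FAN library, the log2 changes were 6.16 for Sox9, 3.48 for Sox4 and 3.96 for Sox11. With 2 libraries a group under ad libitum feeding, they were 5.83 for Sox9, 2.89 for Sox4 and 3.68 for Sox11. All 6 of these changes were called (adjusted p at most 0.00283, edgeR). The spread came from the groups with 2 libraries, and the lone FAN time-restricted library was assumed to vary like them, so its 3 calls have no replicate check of their own. The other ranges hold only FAN or only vehicle libraries, so range and treatment cannot be told apart there.

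**Figure D2:**
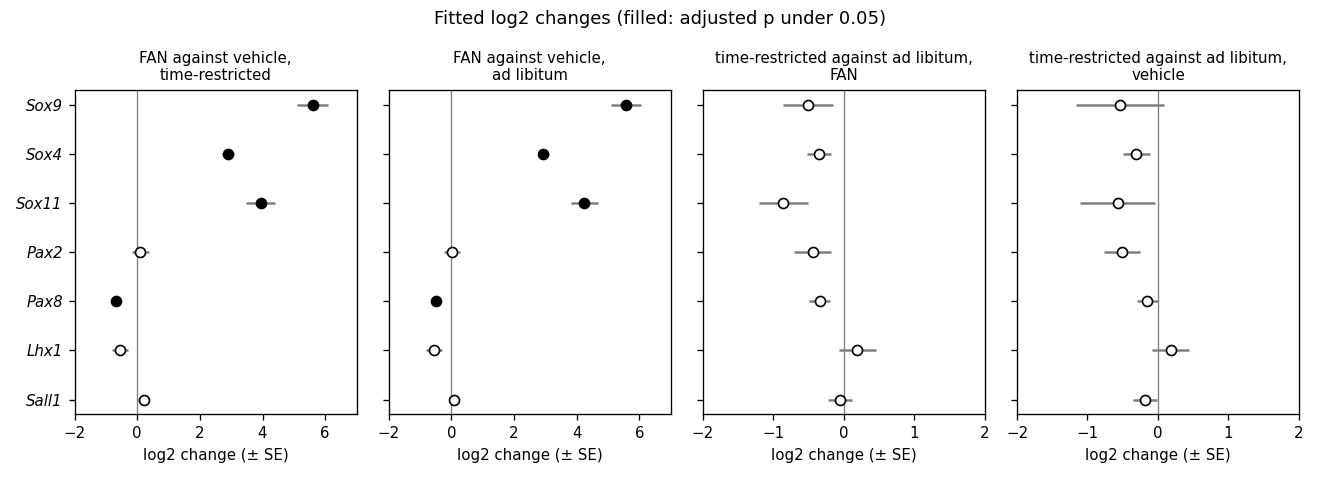
Fitted log2 changes with SE (edgeR, 16 libraries) of the 7 genes in the comparisons of FAN with vehicle and of time-restricted with ad libitum feeding, with calls as filled points. Sox9, Sox4, Sox11 and Pax8 are filled in both FAN comparisons, and no point is filled in the feeding comparisons.

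Among the other 4 genes, Pax8 (ENSMUSG00000026976, chr2:24420560-24475599, minus strand) was the most abundant in vehicle kidneys. Under time-restricted feeding its level was 71.9, 71.8, 69.1 and 57.6 CPM in FAN kidneys, against 114, 120, 105 and 95 CPM in vehicle kidneys. Under ad libitum feeding it was 111, 96.2, 63.1 and 72.4 CPM in FAN kidneys, against 123, 105, 127 and 125 CPM in vehicle kidneys. The groups did not overlap under time-restricted feeding, while under ad libitum feeding FAN ad libitum 6 lay above the lowest vehicle library. The FAN ad libitum values of 111 and 96.2 CPM came from S97 to S103, and those of 63.1 and 72.4 CPM from S300 to S305. In this group Pax2, Lhx1, Sall1 and Sox9 were also higher in both S97 to S103 libraries, and Sox4 and Sox11 were not. Pax8 fell by 0.68 ± 0.15 (log2, SE; adjusted p = 0.0014, edgeR) under time-restricted feeding and by 0.49 ± 0.15 (adjusted p = 0.00894, edgeR) under ad libitum feeding.

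The Pax8 calls did not hold in every fit. With the range of S numbers as a covariate its log2 change was -0.39 (adjusted p = 0.109, edgeR) under time-restricted feeding and -0.34 (adjusted p = 0.0786, edgeR) under ad libitum feeding. Within S97 to S103 it was -0.77 under time-restricted feeding, from 1 FAN library whose spread is assumed (adjusted p = 0.0163, edgeR), and -0.18 (adjusted p = 0.321, edgeR) under ad libitum feeding. With scaling by library size alone it turned to 0.22 under ad libitum feeding, where the median of all genes moved to 0.76. The noncoding gene Gm13415, with 6 to 106 reads, overlaps Pax8 on the other strand.

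Lhx1 (ENSMUSG00000018698, chr11:84518284-84525535, minus strand) was low in all groups. Under time-restricted feeding it stood at 6.97, 9.49, 8.88 and 9.01 CPM in FAN kidneys, against 17.3, 9.5, 12.5 and 10.8 CPM in vehicle kidneys. With ad libitum access it stood at 10.5, 7.9, 6.31 and 5.21 CPM in FAN kidneys, against 12.3, 6.8, 9.2 and 16.1 CPM in vehicle kidneys. Under time-restricted feeding all FAN values lay below all vehicle values, the closest being 9.49 and 9.5 CPM. The log2 change was -0.55 ± 0.26 (adjusted p = 0.0964, edgeR) under time-restricted feeding and -0.56 ± 0.26 (adjusted p = 0.0662, edgeR) under ad libitum feeding, and neither passed.

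Pax2 (ENSMUSG00000004231, chr19:44756045-44837871, plus strand) varied within groups more than between them. In time-restricted mice it was at 10.3, 13.6, 10.1 and 16.7 CPM in FAN kidneys, against 8.21, 20.1, 8.68 and 9.61 CPM in vehicle kidneys. In ad libitum mice it was at 16, 23.3, 13.6 and 15.4 CPM in FAN kidneys, against 16.7, 15.9, 20.9 and 13.3 CPM in vehicle kidneys. The groups overlapped, with log2 changes of 0.1 ± 0.27 (adjusted p = 0.785, edgeR) under time-restricted feeding and 0.03 ± 0.26 (adjusted p = 0.919, edgeR) under ad libitum feeding. The library with the highest Pax2 in its group was also the one with the highest summed level of the urothelium markers (Upk1a, Upk1b, Upk2, Upk3a, Krt5 and Psca) in 4 of 4 groups, and the library with the lowest Pax2 had the lowest sum in 3 of 4. This was the closest match among 56 pairs of a gene and a list set side by side (7 genes, 8 lists) and was picked out after the values were seen. The next closest was Sall1 with the parietal epithelium markers, where the highest and the lowest library matched in 3 of 4 groups each. The urothelium sum ranged from 6.8 to 162 CPM in FAN time-restricted kidneys, 12.1 to 98 CPM in FAN ad libitum kidneys, 39.9 to 163 CPM in vehicle time-restricted kidneys and 51.1 to 232 CPM in vehicle ad libitum kidneys. None of the 6 markers was called in either FAN comparison. The part of urothelium in the Pax2 values was not tested. Antisense genes within Pax2 had few reads, 0 to 7 for Gm20395 and 4 to 44 for 1700039E22Rik.

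Sall1 (ENSMUSG00000031665, chr8:89027235-89044162, minus strand) had the smallest range over the 16 libraries of the 7 genes, 0.86 on the log2 scale. Under time-restricted feeding its level was 41.7, 49.6, 44 and 48.2 CPM in FAN kidneys, against 33.8, 42.5, 46.5 and 35.8 CPM in vehicle kidneys. In the ad libitum groups it was 60.6, 48.4, 46 and 35.3 CPM in FAN kidneys, against 47.2, 42.8, 33.3 and 56.4 CPM in vehicle kidneys. The groups overlapped under both regimens. The log2 change was 0.21 ± 0.17 (adjusted p = 0.332, edgeR) under time-restricted feeding and 0.08 ± 0.17 (adjusted p = 0.681, edgeR) under ad libitum feeding. With scaling by library size, Sall1 (0.79, adjusted p = 0.000418) and Pax2 (0.74, adjusted p = 0.0242; edgeR) passed under ad libitum feeding, at values close to the median of all genes under that scaling, 0.76.

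Per kilobase of exon, the order of the 7 genes differed between FAN and vehicle kidneys. Sox4 averaged 13.3 ± 4.69 CPM per kilobase in FAN time-restricted and 16.9 ± 1.7 in FAN ad libitum kidneys (SD, n = 4), which placed it at the top with Pax8, whose values it overlapped. In vehicle kidneys Pax8 led, at 17.9 ± 1.79 CPM per kilobase under time-restricted and 19.9 ± 1.65 under ad libitum feeding (SD, n = 4), clear of Sall1, which averaged 7.53 ± 1.11 under time-restricted and 8.53 ± 1.82 under ad libitum feeding. There Sox4 stood below Pax8, Sall1, Pax2 and Lhx1, overlapping the values of the next above it, and Sox9 and Sox11 came last and overlapped each other.

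Together the SOX genes made up 41.1% ± 8.87 of the per-kilobase sum of the 7 genes in FAN time-restricted kidneys and 45.7% ± 3.89 in FAN ad libitum kidneys. Their share was 5.94% ± 1.26 in vehicle time-restricted kidneys and 6.53% ± 0.861 in vehicle ad libitum kidneys (SD, n = 4 each). The sum of the other 4 genes was 24.4 ± 1.26 CPM per kilobase in FAN time-restricted kidneys, against 30.6 ± 2.87 in vehicle time-restricted kidneys. Under ad libitum feeding it was 28.1 ± 6.17 CPM per kilobase in FAN kidneys, against 34.2 ± 3.23 in vehicle kidneys. Sox4 exceeded Sox9 per kilobase by a factor of 4.26 ± 2.23 in FAN time-restricted and 3.24 ± 0.642 in FAN ad libitum kidneys, against 24.7 ± 7.78 in vehicle time-restricted and 33 ± 28 in vehicle ad libitum kidneys, where Sox9 counts are few.

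**Figure D3:**
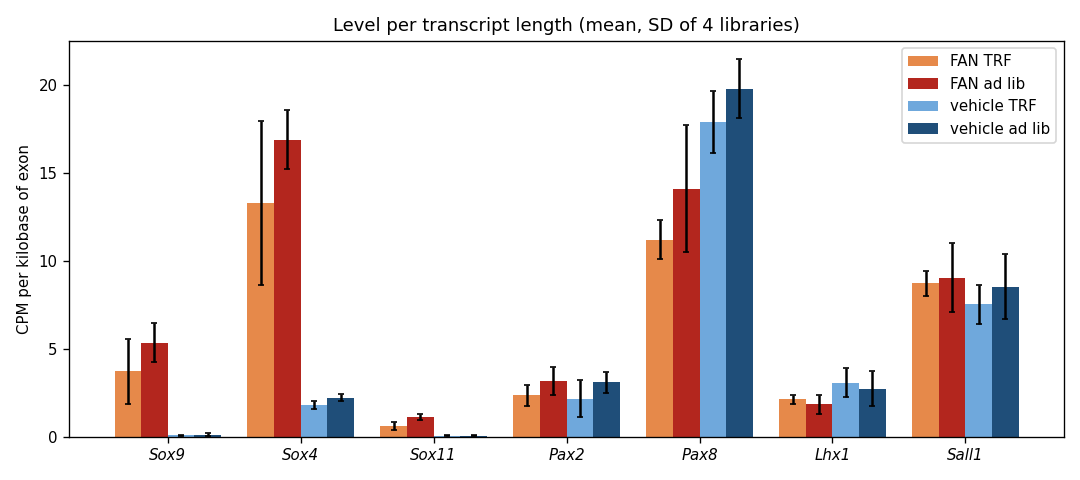
Mean level per kilobase of exon of the 7 genes in the 4 groups (bars from 0; error bars, SD of 4 libraries). Sox4 stands beside Pax8 in FAN kidneys, and Pax8 stands alone at the top in vehicle kidneys.

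No change with feeding regimen was called for any of the 7 genes. In FAN kidneys 0 of 7 genes were called between the feeding regimens, where 31.8% of genes tested were called. Sox11 averaged 4.98 ± 1.88 CPM in FAN time-restricted kidneys, against 9.2 ± 1.26 CPM in FAN ad libitum kidneys (SD, n = 4), and the highest time-restricted value, 6.88, lay below the lowest ad libitum value, 7.9. Such separation towards lower values occurred in 12.3% of genes tested. The log2 change of Sox11 was -0.86 ± 0.35 (adjusted p = 0.0699, edgeR), which passed with DESeq2 (-0.89, adjusted p = 0.0245) and in a fit of the FAN libraries alone (-0.86, adjusted p = 0.0313, edgeR).

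The remaining genes overlapped between FAN feeding groups. The log2 changes, time-restricted against ad libitum, were -0.51 ± 0.35 for Sox9 (adjusted p = 0.275), -0.35 ± 0.17 for Sox4 (adjusted p = 0.142), -0.34 ± 0.15 for Pax8 (adjusted p = 0.0908) and -0.44 ± 0.26 for Pax2 (adjusted p = 0.208; edgeR). Lhx1 was at 0.19 ± 0.26 and Sall1 at -0.05 ± 0.17. Sox4 passed without FAN time-restricted 6, at -0.61 (adjusted p = 0.00285, edgeR), and Pax8 without FAN ad libitum 10, at -0.46 (adjusted p = 0.0155, edgeR). FAN time-restricted 6 was the only library of its group from S97 to S103, while FAN ad libitum 6 and 7 came from that range. The FAN feeding groups were thus uneven over the ranges of S numbers, and more so in both of these fits. With scaling by library size alone, 6 of 7 genes passed towards lower values, but the median of all genes then moved to -0.67. Sall1 was close to that median (-0.7), and Sox11 (-1.49), Sox9 (-1.15), Pax2 (-1.11), Sox4 (-1) and Pax8 (-0.99) were below it.

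The FAN time-restricted library 12 was the lowest of its group for all 3 SOX genes. It also had the lowest depth of all libraries, at 12450812 counts. It had the lowest summed level of the tubule injury genes, mostly Spp1, in its group (6300 CPM, against up to 13600). The library was also the highest of its group for the proximal tubule sum, mostly Kap (64000 CPM, against a lowest value of 40900). It was likewise the highest for the urothelium (162 CPM), principal cell (284 CPM), thick ascending limb (2260 CPM), endothelial cell (386 CPM) and B and plasma cell (22.4 CPM) sums. For the other cell type lists and the cell cycle genes it was the lowest. The part of these cells in its SOX values was not tested. Without FAN time-restricted 12 the log2 changes between FAN feeding groups were -0.23 for Sox9 (adjusted p = 0.566), -0.22 for Sox4 (adjusted p = 0.375) and -0.65 for Sox11 (adjusted p = 0.177, all edgeR). The changes of FAN against vehicle without it were 5.87 for Sox9, 3.02 for Sox4 and 4.15 for Sox11.

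**Figure D4:**
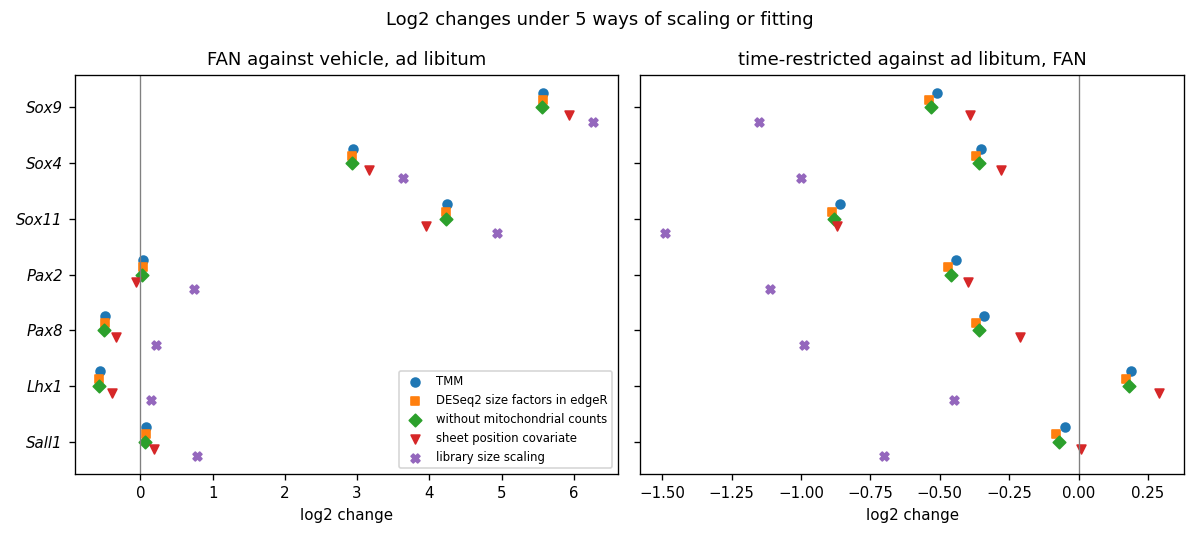
Log2 changes of the 7 genes under 5 ways of scaling or fitting, for FAN against vehicle under ad libitum feeding and, in FAN kidneys, for time-restricted against ad libitum feeding (sheet position covariate, the range of S numbers as a covariate). Library size scaling stands apart from the other 4 in both panels. It moves Pax8 and Lhx1 from below to above 0 in the left panel and Lhx1 from above to below 0 in the right panel.

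In vehicle kidneys no gene of the table was called between feeding regimens (0% of genes tested; 1143 genes had an unadjusted p under 0.05, and DESeq2 called 58 genes, of which none was among the 7). The log2 changes, time-restricted against ad libitum, ran from -0.57 for Sox11 to 0.18 for Lhx1, and the lowest adjusted p was 0.819, for Pax2 (-0.51 ± 0.26, edgeR). All 7 genes overlapped between the vehicle feeding groups, as did all but 4.85% of genes tested. The interaction, which asks whether the FAN change differed between regimens, was called for 0 of 7 genes, against 9.16% of genes tested. Its log2 values ran from -0.29 ± 0.66 for Sox11 to 0.12 ± 0.24 for Sall1, with adjusted p of at least 0.626 (edgeR).

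Other developmental genes were read from lists of nephron progenitor factors, segment identity factors and relatives of the 7 genes. Their counts stand against shares of all genes tested of 24.5% that rose and 19% that fell under time-restricted feeding, and 32.1% and 28.6% under ad libitum feeding. Of 14 progenitor factors, 9 passed the filter on low counts. Among those that did not pass were Six2, which had 0 reads in all 16 libraries, and Eya1, Cited1 and Uncx, with at most 18 reads in any library. Of the 9, 7 rose and 1 fell in FAN against vehicle kidneys under time-restricted feeding, and 6 rose and 1 fell under ad libitum feeding. The median log2 change of the list was 1.1 under time-restricted feeding, against 0.05 for all genes, and 0.84 under ad libitum feeding, against 0.06 for all genes. The filter can keep a gene through the group where it is higher, so counts here and in the lists below describe tested genes only. The sum over all 14, with Hoxa10 the largest part, was 90.9 to 115 CPM in FAN against 78.2 to 91.9 CPM in vehicle time-restricted kidneys. Under ad libitum feeding it was 84.1 to 94.5 CPM in FAN against 79.4 to 94.6 CPM in vehicle kidneys.

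The homeobox genes Hoxd11 and Hoxa11, which pattern the metanephros, were among those that rose. Hoxd11 averaged 1.22 ± 0.43 CPM in FAN time-restricted kidneys and 2.7 ± 0.651 in FAN ad libitum kidneys, against 0.29 ± 0.114 in vehicle time-restricted and 0.472 ± 0.0768 in vehicle ad libitum kidneys (SD, n = 4). Its log2 change was 1.99 ± 0.34 under time-restricted and 2.49 ± 0.31 under ad libitum feeding. These folds rest on at most 11 reads per library in vehicle time-restricted and 16 in vehicle ad libitum kidneys. Hoxa11 rose by 1.8 ± 0.34 under time-restricted and by 2.2 ± 0.33 under ad libitum feeding. Osr1, an early marker of renal mesoderm, fell by 1.45 ± 0.42 (adjusted p = 0.00992, edgeR) under time-restricted feeding, on at most 39 reads per library. Hoxa10 fell by 0.85 ± 0.11 (adjusted p = 2.46e-06, edgeR) under ad libitum feeding, a call lost with scaling by library size (-0.15). Hoxd11 was also lower in FAN time-restricted than in FAN ad libitum kidneys (-1.14 ± 0.28, adjusted p = 0.00542, edgeR).

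Of 24 segment identity factors, 23 were tested. Under time-restricted feeding 2 rose and 4 fell, and under ad libitum feeding 3 rose and 8 fell; of these 8, 3 turned to values above 0 with scaling by library size, among them Pou3f3 (0.18) and Foxi1 (0.16). The counts of the list that fell are near the background shares of 19% and 28.6%. Hnf4a, the nuclear receptor gene of proximal tubule identity, averaged 373 ± 42.1 CPM in FAN time-restricted and 177 ± 42.3 CPM in FAN ad libitum kidneys, against 660 ± 44.3 CPM in vehicle time-restricted and 696 ± 57.4 CPM in vehicle ad libitum kidneys (SD, n = 4). It fell by 0.82 ± 0.16 under time-restricted and by 1.98 ± 0.16 under ad libitum feeding (log2, SE; adjusted p at most 0.000349, edgeR). Hnf4a passed the interaction test at 1.15 ± 0.22 (adjusted p = 0.00247, edgeR), and Irx3, a factor gene of the intermediate nephron, at 1.18 ± 0.2 (adjusted p = 0.000849, edgeR). With scaling by library size the interaction of Hnf4a was 0.55 (adjusted p = 0.0505, edgeR). Tfap2a, an AP-2 factor gene, rose by 0.61 ± 0.18 under time-restricted and 1.11 ± 0.17 under ad libitum feeding.

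Of 33 relatives from the Pax, Lhx, Sall and Sox families, 12 were tested; in FAN against vehicle kidneys 4 rose and 1 fell under time-restricted feeding, and 5 rose and none fell under ad libitum feeding. Sox8, of the same SoxE group as Sox9, averaged 0.857 ± 0.272 CPM in FAN time-restricted and 2.54 ± 0.221 CPM in FAN ad libitum kidneys. It was at 0.184 ± 0.0434 CPM in vehicle time-restricted and 0.216 ± 0.149 CPM in vehicle ad libitum kidneys (SD, n = 4). On the log2 scale Sox8 rose by 2.28 ± 0.4 under time-restricted and by 3.55 ± 0.36 under ad libitum feeding. Vehicle libraries held at most 4 reads of Sox8 under time-restricted and 9 under ad libitum feeding, so the size of these folds is uncertain. Of the 12, Sox8 alone was called between FAN feeding groups, where it was lower under time-restricted feeding (-1.54 ± 0.31, adjusted p = 0.00109, edgeR). In that comparison 31.8% of all genes tested were called. Lhx6 rose by 2 ± 0.54 under ad libitum feeding, on at most 9 reads per vehicle ad libitum library. Sox18, a gene of endothelial cells, rose by 1.49 ± 0.23 under time-restricted feeding.

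**Figure D5:**
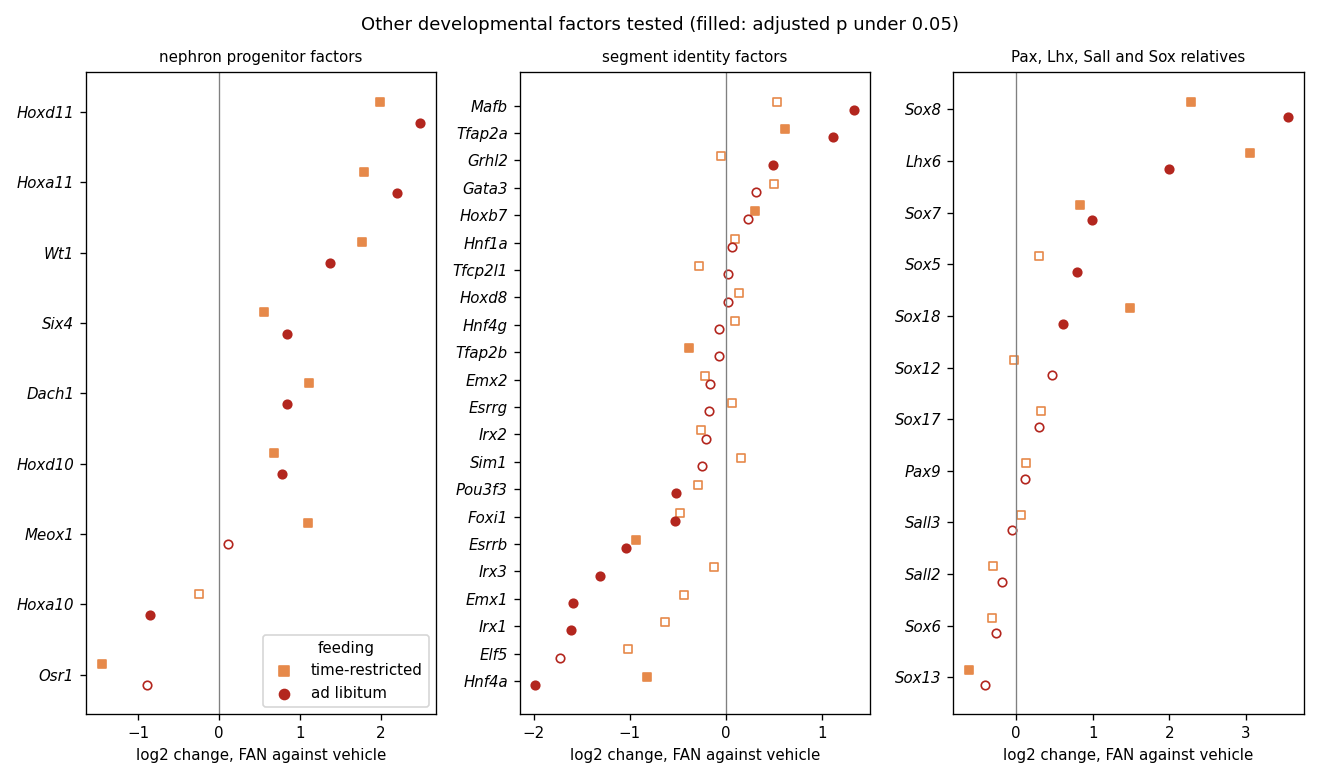
Log2 changes, FAN against vehicle, of tested nephron progenitor factors, segment identity factors (1 tested gene is not drawn) and relatives of the 7 genes (squares, time-restricted; circles, ad libitum; filled, adjusted p under 0.05). Hoxd11, Hoxa11 and Sox8 lie far to the right under both regimens, and Hnf4a lies furthest left in its panel under ad libitum feeding.

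Inductive signals of the nephron (Notch, Ret, Fgf and Bmp pathways) had 25 of 29 genes tested. Of these 12 rose and 1 fell in FAN against vehicle kidneys under time-restricted feeding, and 13 rose and 3 fell under ad libitum feeding, of which Bmp4 turned to 0.26 with scaling by library size. The Bmp antagonist gene Grem1 rose by 6.86 ± 0.57 under time-restricted and by 5.87 ± 0.51 under ad libitum feeding. Grem1 had at most 3 reads per library in vehicle time-restricted and 7 in vehicle ad libitum kidneys. The size of its folds is therefore uncertain. Bmp7, a survival signal of nephron progenitors, fell by 1.21 ± 0.18 under time-restricted and by 1.51 ± 0.18 under ad libitum feeding. The Notch ligand gene Jag1 rose by 1.4 ± 0.13 under ad libitum feeding and was lower in FAN time-restricted than in FAN ad libitum kidneys (-0.65 ± 0.13, adjusted p = 0.000906, edgeR). Of 26 genes for protein partners of the LHX, PAX and SALL factors, 8 rose and 4 fell under time-restricted and 12 rose and 3 fell under ad libitum feeding. Of all genes tested 24.5% rose and 19% fell under time-restricted feeding and 32.1% rose and 28.6% fell under ad libitum feeding. With scaling by library size 1 partner gene was called lower under time-restricted feeding and none under ad libitum feeding. Lmo2, which encodes a LIM-only adaptor that binds LDB proteins, rose by 1.11 ± 0.18 under time-restricted and by 1.2 ± 0.17 under ad libitum feeding (log2, SE). Lmo4 fell by 0.69 ± 0.11 under ad libitum feeding, a change that was 0.02 with scaling by library size.

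For each of the 7 genes, the tested genes with the most similar profile were found by the root mean square difference of centred log2 CPM over 16 libraries. This is a description, since libraries of a group share their treatment. Among the 3 nearest to Sox4 were Marcks (0.23) and Klf6 (0.24). Nearest to Sox11 were Adgre1, which encodes the macrophage surface protein F4/80 (0.41), Lair1 (0.5) and Cd300c2 (0.5). The neighbours of Sox9 were Sult4a1 (0.49), Sprr2f (0.63) and Gm48709 (0.64). This difference grows with a gene's own range, 7.07 for Sox9 and 0.86 for Sall1, so its size cannot be compared between genes. Nearest to Lhx1 were D630045J12Rik (0.21), the proton pump subunit gene Atp6v1b1 (0.22) and the bicarbonate transporter gene Slc4a9 (0.23). Pax2 was nearest to Tjp3 (0.19), Ampd3 (0.23) and Rgl3 (0.23), Pax8 to Gps2, Atxn2 and Vac14 (0.13 each), and Sall1 to Gas6 (0.13), Zfyve1 (0.16) and Tspan31 (0.18). Between the members, Pax8 and Lhx1 differed by 0.38, Pax8 and Sall1 by 0.45, Sox4 and Sox11 by 0.88, Sox9 and Sox11 by 1.22 and Sox9 and Sox4 by 1.36. The sizes of these pair values also grow with the ranges of the genes.

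Several gene lists, of injury and of other cell types, moved in the same comparisons as the SOX genes. Of all genes tested, 24.5% rose under time-restricted and 32.1% under ad libitum feeding. All 12 tubule injury genes rose in FAN against vehicle kidneys under both regimens, with summed levels of 6300 to 13600 CPM in FAN time-restricted and 12600 to 19200 CPM in FAN ad libitum kidneys, against 1110 to 1500 CPM in vehicle time-restricted and 1070 to 1550 CPM in vehicle ad libitum kidneys. Spp1 made up most of the FAN sums, at means of 8810 CPM in FAN time-restricted and 13000 CPM in FAN ad libitum kidneys. Its vehicle means were 659 CPM under time-restricted and 644 CPM under ad libitum feeding. All 4 parietal epithelium markers rose under both regimens, with sums of 136 to 212 CPM in FAN time-restricted and 229 to 333 CPM in FAN ad libitum kidneys, against 26 to 40.9 CPM in vehicle time-restricted and 33.6 to 61.1 CPM in vehicle ad libitum kidneys. Fibroblast and pericyte markers rose for 6 of 7 genes under both, with sums of 486 to 882 CPM in FAN time-restricted and 854 to 1580 CPM in FAN ad libitum kidneys, against 106 to 185 CPM in vehicle time-restricted and 115 to 241 CPM in vehicle ad libitum kidneys. Macrophage and dendritic cell markers rose for 5 of 6 genes under time-restricted and 6 of 6 under ad libitum feeding, with sums of 251 to 463 CPM in FAN time-restricted and 599 to 702 CPM in FAN ad libitum kidneys, against 75.2 to 107 CPM in vehicle time-restricted and 94.2 to 155 CPM in vehicle ad libitum kidneys. Cell cycle genes rose for 8 of 10 genes under time-restricted and 10 of 10 under ad libitum feeding, with sums of 110 to 196 CPM in FAN time-restricted and 147 to 172 CPM in FAN ad libitum kidneys, against 49.7 to 59.1 CPM in vehicle time-restricted and 46.4 to 57.7 CPM in vehicle ad libitum kidneys. All 6 T and NK cell markers rose under both regimens, with sums of 17.1 to 27.5 CPM in FAN time-restricted and 16.4 to 26.3 CPM in FAN ad libitum kidneys, against 3.15 to 3.6 CPM in vehicle time-restricted and 2.83 to 6.92 CPM in vehicle ad libitum kidneys. All 5 neutrophil markers rose under both, with sums of 5.67 to 18.2 CPM in FAN time-restricted and 17.4 to 28.2 CPM in FAN ad libitum kidneys, against 0.762 to 2.09 CPM in vehicle time-restricted and 1.65 to 4.1 CPM in vehicle ad libitum kidneys. Podocyte markers rose for 5 of 6 genes under time-restricted and 4 of 6 under ad libitum feeding, with sums of 175 to 322 CPM in FAN time-restricted and 189 to 322 CPM in FAN ad libitum kidneys, against 100 to 169 CPM in vehicle time-restricted and 106 to 232 CPM in vehicle ad libitum kidneys. Endothelial cell markers rose for 4 of 8 genes under time-restricted and 2 of 8 under ad libitum feeding, with sums of 237 to 386 CPM in FAN time-restricted and 259 to 300 CPM in FAN ad libitum kidneys, against 153 to 228 CPM in vehicle time-restricted and 195 to 310 CPM in vehicle ad libitum kidneys. Under ad libitum feeding the endothelial count was near the share of all genes that rose. The podocyte and endothelial sums overlapped between FAN and vehicle kidneys under that regimen.

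The tubule lists did not move alike. Of all genes tested, 19% fell under time-restricted and 28.6% under ad libitum feeding. Of 10 proximal tubule markers, 7 fell under time-restricted and 8 under ad libitum feeding, with sums of 40900 to 64000 CPM in FAN time-restricted and 6260 to 11000 CPM in FAN ad libitum kidneys, against 66900 to 69700 CPM in vehicle time-restricted and 49600 to 70100 CPM in vehicle ad libitum kidneys. Kap made up most of this sum, at means of 45300 CPM in FAN time-restricted and 6920 CPM in FAN ad libitum kidneys. Its vehicle means were 59200 CPM under time-restricted and 52100 CPM under ad libitum feeding. Lrp2, for example, averaged 1040 CPM in FAN time-restricted and 386 CPM in FAN ad libitum kidneys. The vehicle means of Lrp2 were 1730 CPM under time-restricted and 1700 CPM under ad libitum feeding. Intercalated cell markers fell for 3 of 6 genes under time-restricted and 4 of 6 under ad libitum feeding. Collecting duct principal cell markers fell for 2 of 5 tested genes under both regimens. Of 6 thick ascending limb markers, 1 rose and 1 fell under time-restricted feeding and 1 fell under ad libitum feeding, and of 5 distal convoluted tubule markers 1 rose under time-restricted feeding and 1 rose and 2 fell under ad libitum feeding. The sums of both lists overlapped between FAN and vehicle kidneys. Of 5 B and plasma cell markers, none was called under time-restricted feeding and 1 fell under ad libitum feeding. Between the FAN groups, 8 of 10 proximal tubule markers were higher (5 with scaling by library size), 5 of 7 fibroblast and pericyte markers lower and 6 of 6 macrophage and dendritic cell markers lower under time-restricted than under ad libitum feeding. In that comparison 31.8% of all genes tested were called in either direction. No marker of these lists was at 0 in all libraries of a group. The part of these cell types in the values of the 7 genes was not tested. In RNA of whole kidney, fewer cells of a type and less RNA per cell cannot be told apart.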

How the data were processed

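Raw read counts per gene were used as the authors deposited them, in 1 table of 52338 genes. The labels' protocols name TRIzol extraction and a stranded poly(A) library kit. The submitters' processing notes name FastQC 0.11.5, STAR 2.5.3a, edgeR 3.26.7 and mm10; which program counted reads, and whether by strand, is not given in the sources used here. FAN columns match their group only, since their numbers differ from the sample titles.

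The analysis used edgeR 4.0.16 and limma 3.58.1 in R 4.3.3. filterByExpr (minimum count 10) kept 17731 genes. All 16 libraries were scaled by TMM and entered 1 quasi-likelihood fit with a mean per group, with two-sided tests and Benjamini-Hochberg adjustment (threshold 0.05). CPM are TMM-scaled, and centred log2 CPM used a prior count of 2. DESeq2 1.42.0 was an alternative. Total counts were 12450812 to 33976660, and limits from 3 counts cover counting error only, as reads carry no molecular identifiers. Replicates differed (chi-square per gene at least 16.1). In FAN ad libitum kidneys this value was 21 and 26.1 within a range of S numbers and 144 to 154 between ranges. In the other groups it was at most 80.3. In simulated counts for FAN against vehicle under ad libitum feeding (17731 genes), 56% of 100 genes changed 2-fold and 85% of 100 changed 4-fold were recovered, with 3 false calls. Only these genes were changed, up and down alike, with no shift in RNA composition built in. In the data 60.7% of genes were called in that comparison, so these figures may not carry over.

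The members and lists were chosen with earlier results of these data known. Named genes are the 7 members, up to 2 genes per list, comparison and direction with the smallest p among those called, and the 3 nearest profiles of each member; Six2, Eya1, Cited1, Uncx, Pou3f3, Foxi1 and the values of Bmp4 under ad libitum feeding were added after their values were seen. A few genes that these rules name are not reported here. Coordinates are from GENCODE M21, matched by Ensembl identifier.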

Additional observations from a re-analysis of the deposited data

Results flagged for a closer look

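Of 28 groups of 4 values checked (7 genes in 4 groups), 1 held a value far from the others; chance alone gives this in about 1 of 20 groups. Pax2 in vehicle time-restricted 2 was at 20.1 CPM, against 8.21, 8.68 and 9.61 CPM in the other vehicle time-restricted kidneys. The same library had the highest urothelium marker sum (163 CPM) and the highest collecting duct principal cell sum (472 CPM) of its group, whose lowest sums were 39.9 and 292 CPM. It was also the highest of its group for the tubule injury genes (1500 CPM) and for the fibroblast and pericyte (185 CPM), endothelial cell (228 CPM), B and plasma cell (17 CPM) and neutrophil (2.09 CPM) markers. The part of these cells in the value was not tested. Without this library the log2 change of Pax2, FAN against vehicle under time-restricted feeding, was 0.51 (adjusted p = 0.0706, edgeR), and that of time-restricted against ad libitum feeding in vehicle kidneys was -0.92 (adjusted p = 0.26, edgeR).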

How the results depend on the processing

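Sox9, Sox4 and Sox11 stayed called as higher in FAN kidneys, under both regimens, in every alternative run. Over all alternatives, called log2 changes kept their direction and call in 124 values, lost the call in 3 and turned in 1, all 4 of them Pax8. Of the uncalled values 419 stayed, 18 passed and 62 turned. The cause was not tested in any case below. Scaling by library size moved the median of all genes to 0.76 (FAN against vehicle, ad libitum, where 83.9% of calls were then higher, against 52.8%), 0.16 (time-restricted, 67.2% against 56.3%), -0.67 (feeding in FAN, 8.61% against 56.4%) and -0.57 (interaction, 7.6% against 84.7%). DESeq2 put 72.9% of interaction calls higher.

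Under library size scaling the FAN change under ad libitum feeding turned to 0.22 for Pax8 and 0.15 for Lhx1 and was called for Pax2 (0.74) and Sall1 (0.79), feeding in FAN kidneys called 6 members and 11502 genes and Lhx1 turned to -0.45, and the interaction called 1 member (Pax8) and 6631 genes and turned to -0.56 for Pax2 and Sox9, -0.59 for Lhx1 and -0.48 for Sall1. Feeding in FAN kidneys called 1 member (Sox11) with DESeq2 and 1 (Sox11) in the fit of the compared groups only. That fit gave -0.01 for Pax2 (FAN, ad libitum), and called Lhx1 under time-restricted feeding (-0.58, adjusted p = 0.0294, edgeR). The covariate for ranges of S numbers left 4974 genes for FAN under time-restricted feeding, against 7719, and gave -0.06 for Pax2 (FAN, ad libitum), 0.01 for Sall1 (feeding, FAN) and 0.03 for Sox4 (interaction). In single ranges, 3 of these fits chosen after seeing the data, Pax2 was -0.53 (FAN, time-restricted), Sall1 0.23 (feeding, FAN, with 2129 genes called against 5639), Pax8 0.03 and Lhx1 -0.12 (feeding, vehicle, where 9 genes were called). Feeding in vehicle kidneys called 6 genes without a filter, 58 with DESeq2, 1 in the fit of the compared groups and 1 with the covariate, against 0. In the interaction Lhx1 was -0.02 with DESeq2 size factors, without a filter and with DESeq2, and -0.01 without mitochondrial counts (also chosen after seeing the data), and Sox9 was -0.01 with DESeq2 size factors and -0.04 with DESeq2.

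Column numbers gave no sign of pairing the libraries. Deviations of same-numbered libraries correlated at 0.18, 0.12, -0.15 and -0.01 in vehicle and -0.13, -0.05 and -0.25 in FAN kidneys. Those of differently numbered libraries spanned -0.28 to 0.32 in vehicle and -0.16 to 0.26 in FAN kidneys. So few values cannot settle whether the numbers pair. With the number as a replicate block, feeding in FAN kidneys called 1 member (Sox11, -1.18, adjusted p = 0.0333, edgeR) and 3400 genes, with Sall1 at 0, and the interaction called 877 genes against 1625, with Sox9 at -0.24 and Sox4 at 0.02. FAN and vehicle columns share no numbers, so that comparison had no blocked fit.

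Leaving out each library of the compared groups gave 4 to 5 members called for FAN under ad libitum feeding (Lhx1 joined without FAN ad libitum 6 or vehicle ad libitum 2), 4 in each fit under time-restricted feeding, 0 to 1 for feeding in FAN kidneys, and 0 to 2 genes for feeding in vehicle kidneys; leaving out FAN ad libitum 6, which that comparison shares only the spread with, gave 3 genes higher and 1 lower there. Values that turned in at least 1 such fit ranged from -0.15 to 0.15 (Pax2) and -0.05 to 0.21 (Sall1) for FAN under ad libitum feeding, from -0.05 to 0.51 (Pax2) for FAN under time-restricted feeding, from -0.17 to 0.08 (Sall1) for feeding in FAN and from -0.02 to 0.41 (Lhx1) for feeding in vehicle kidneys. In the interaction they ranged from -0.21 to 0.22 (Lhx1), -0.08 to 0.48 (Pax2), -0.66 to 0.09 (Sox11), -0.31 to 0.09 (Sox4) and -0.33 to 0.37 (Sox9). Depth limits Sox9 and Sox11 in vehicle kidneys, at 1 to 22 reads.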
